A study of Mus musculus with 87 samples.

Results

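The genes examined were 9 mouse regulators of entry into the cell cycle. They are the INK4 inhibitors Cdkn2a, Cdkn2b, Cdkn2c and Cdkn2d, the Cip/Kip inhibitors Cdkn1a and Cdkn1b, and the D-type cyclins Ccnd1, Ccnd2 and Ccnd3. They were chosen by name and read by gene symbol in 13 tables of RNA-seq comparisons. Each table held 26171 symbols, all 9 genes were found in every table, and all 9 had an adjusted p in every table.

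The study altered Suz12, a core subunit of the histone methyltransferase complex PRC2, in the mouse embryonic stem cell (ESC) line 129-B13, and measured polyadenylated RNA in ESC and in neuronal precursors (NP) derived from them. ESC were grown in serum with LIF, and NP came from embryoid bodies given retinoic acid on day 4 and harvested on day 8. The ESC groups were unedited wild type (WT, 3 samples), cells in which Suz12 exon 4 is constitutive (CSex4, 2), cells with exon 4 deleted (Deltaex4, 2), and the full Suz12 knock-out (KO, 3). The other ESC groups were KO cells that carried the long isoform (KO-L, 2), the short isoform (KO-S, 2), or either isoform at the Rosa26 locus with a mutation downstream of exon 4 named 3D in the labels (KO-L3D and KO-S3D, 2 each). The NP groups were WT (4, in 2 pairs) and 2 samples each of KO, KO-L, KO-S, CSex4 and Deltaex4. How many clones stand behind a group is not given in the sources used here, so p-values measure the spread between these samples, which may be technical. The rescue groups carry the same knock-out as KO.

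D-type cyclins bind the kinases CDK4 and CDK6, which phosphorylate the retinoblastoma protein and release E2F factors so that a cell can enter S phase. INK4 proteins bind these kinases and keep them inactive, while the Cip/Kip proteins p21 (Cdkn1a) and p27 (Cdkn1b) act mainly on complexes of CDK2. Cdkn2a encodes both p16Ink4a and p19Arf, the second of which stabilises p53, and p53 in turn activates Cdkn1a. The adjoining Cdkn2a and Cdkn2b genes are a textbook target of Polycomb repression, and Ccnd2 is a cyclin of dividing neural progenitors.

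The promoters of the genes at which the deposited ChIP-seq lists had regions, or whose expression moved most, are shown first. They are 300-base windows from RefSeq (GRCm38, 250 bases before to 50 bases after a transcript start, read along the gene's strand). CG dinucleotides are in capitals, since unmethylated CG-rich DNA is where PRC2 is usually found. Of the 9 genes, 7 had a promoter in the table.
Cdkn2a upstream start (p19Arf), chr4:89294570-89294869, minus strand: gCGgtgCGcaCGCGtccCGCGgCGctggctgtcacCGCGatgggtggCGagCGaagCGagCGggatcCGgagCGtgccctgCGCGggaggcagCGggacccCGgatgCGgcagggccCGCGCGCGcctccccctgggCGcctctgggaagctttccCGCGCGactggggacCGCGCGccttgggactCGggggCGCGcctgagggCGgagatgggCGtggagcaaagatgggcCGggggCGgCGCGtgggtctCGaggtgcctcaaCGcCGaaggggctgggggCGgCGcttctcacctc
Cdkn2a downstream start (p16Ink4a), chr4:89282143-89282442, minus strand: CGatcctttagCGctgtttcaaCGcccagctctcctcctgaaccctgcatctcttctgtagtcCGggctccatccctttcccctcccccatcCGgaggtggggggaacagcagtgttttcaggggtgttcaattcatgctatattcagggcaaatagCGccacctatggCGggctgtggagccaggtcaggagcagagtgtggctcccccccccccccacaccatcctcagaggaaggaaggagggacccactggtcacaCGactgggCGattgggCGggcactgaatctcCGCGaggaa
Cdkn2b, chr4:89310983-89311282, minus strand: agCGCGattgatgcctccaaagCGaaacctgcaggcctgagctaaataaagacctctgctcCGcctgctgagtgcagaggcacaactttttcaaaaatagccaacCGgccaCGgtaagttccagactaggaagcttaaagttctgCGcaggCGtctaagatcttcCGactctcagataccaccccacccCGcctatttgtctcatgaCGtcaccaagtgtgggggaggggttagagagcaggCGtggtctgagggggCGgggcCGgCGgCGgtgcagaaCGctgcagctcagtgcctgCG
Cdkn2c upstream start, chr4:109666707-109667006, minus strand: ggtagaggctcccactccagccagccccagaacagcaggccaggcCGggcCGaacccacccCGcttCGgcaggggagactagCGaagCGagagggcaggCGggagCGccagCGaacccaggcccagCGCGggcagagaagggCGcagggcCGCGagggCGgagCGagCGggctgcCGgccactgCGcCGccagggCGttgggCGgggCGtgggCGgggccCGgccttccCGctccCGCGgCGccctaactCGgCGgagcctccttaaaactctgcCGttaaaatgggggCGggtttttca
The upstream Cdkn2a window held 45 CG dinucleotides, more than 98.1% of 32851 promoter windows, whose median was 7. The upstream Cdkn2c window held 33, the Cdkn2b window 18 and the downstream Cdkn2a window 12. The downstream Cdkn2c window, which is not shown, lay in both kinds of region and held 8. Windows in neither kind of region held 30 (Cdkn1b), 15 and 28 (Ccnd3) and 22 (Cdkn2d). The number of CG dinucleotides thus did not set the windows with regions apart. For Cdkn1a, the upstream window is shown with matches to the p53 consensus half-site in capitals.
Cdkn1a upstream start, chr17:29090729-29091028, plus strand: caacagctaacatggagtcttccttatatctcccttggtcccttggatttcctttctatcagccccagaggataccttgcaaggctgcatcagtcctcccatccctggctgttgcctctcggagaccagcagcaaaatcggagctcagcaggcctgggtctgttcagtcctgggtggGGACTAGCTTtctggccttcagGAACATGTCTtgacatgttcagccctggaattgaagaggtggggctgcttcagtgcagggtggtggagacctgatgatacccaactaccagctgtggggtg
This window held 2 matches and 2 CG dinucleotides, and 8.36% of the promoter windows held at least 1 match. The downstream Cdkn1a window, which is not shown, held 23 CG dinucleotides and 0 matches. Among the other windows of the 9 genes, that of Cdkn2d held 1 match and the rest held 0. A match describes the letters only. The expression tables count reads per symbol, so the p16Ink4a and p19Arf transcripts, and the upstream and downstream starts of Cdkn1a, cannot be told apart in them.

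The deposited lists of ESC regions, 1 for H3K27me3 and 1 for Suz12, covered the INK4 genes Cdkn2a, Cdkn2b and Cdkn2c and the cyclin Ccnd2. The lists do not say with which group WT was compared or in which direction a region changed. Their build is not in the file headers, and the submitters' processing notes name mm10, the coordinates of which match GRCm38. An H3K27me3 region lay within 2500 bp of 5 of the 9 genes, against 22.3% of 21900 protein-coding genes, and a Suz12 region within 2500 bp of 4, against 11.8%. At Cdkn2a (chr4:89274473-89294619), an H3K27me3 region of 16040 bp and one of 18010 bp together ran from 89269107 to 89303194. Suz12 regions of 11742 and 4144 bp covered the downstream and the upstream Cdkn2a start, respectively. At Cdkn2b (chr4:89306289-89311032), an H3K27me3 region of 7270 bp ended within the gene, short of the promoter window, and a Suz12 region of 1696 bp, ending at 89311146, overlapped part of that window. Cdkn2c (chr4:109660876-109666756) lay whole within an H3K27me3 region of 13789 bp. At Ccnd2 (chr6:127125162-127152188), a Suz12 region of 9193 bp and H3K27me3 regions of 4701 and 7177 bp lay over and beyond the end of the gene with the higher coordinate. Cdkn1a (chr17:29090979-29100722) had an H3K27me3 region of 1849 bp inside the gene at its downstream start, and its nearest Suz12 region was 136080 bp away. Cdkn2d, Cdkn1b, Ccnd1 and Ccnd3 had neither kind of region within 10000 bp.

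**Figure D1:**
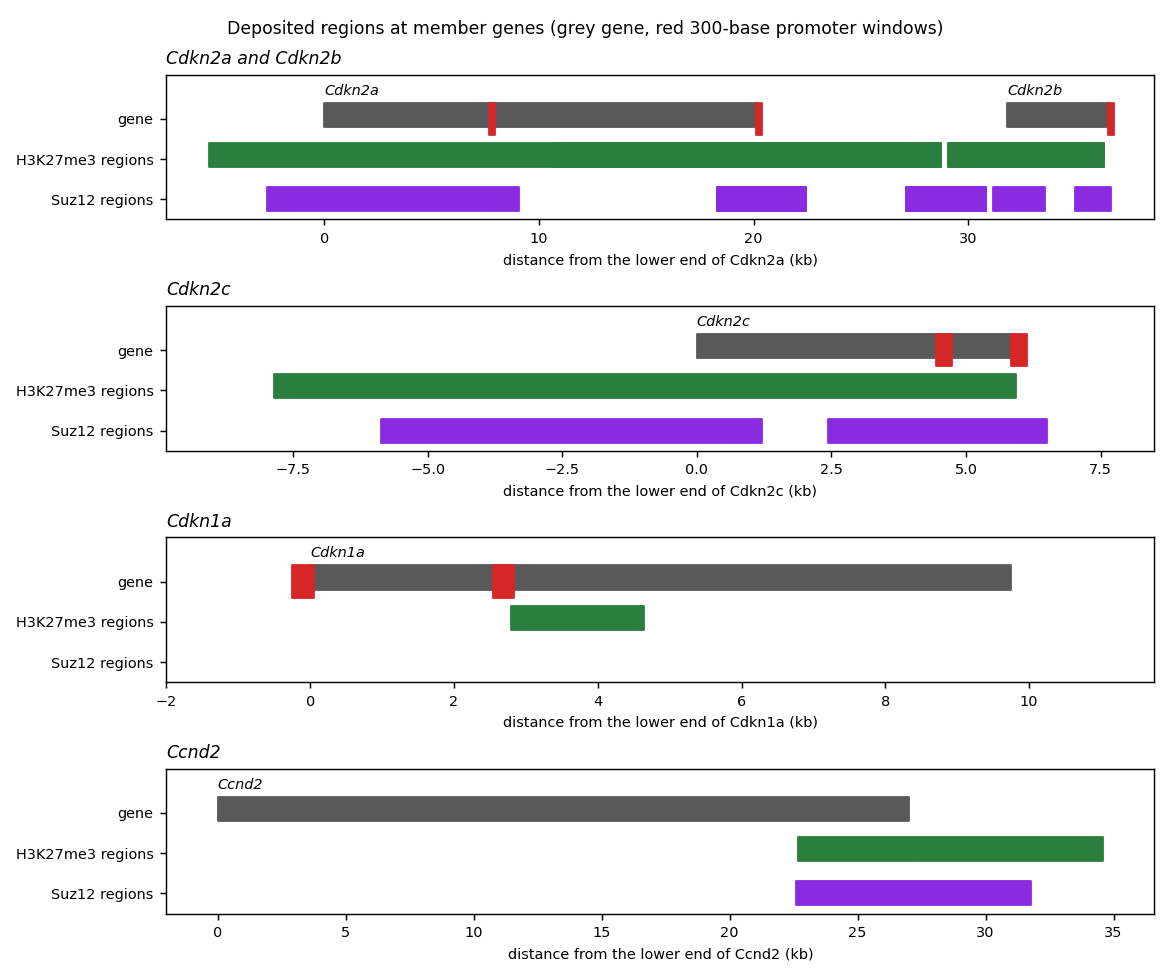
Positions of the deposited H3K27me3 (green) and Suz12 (purple) regions at 5 of the 9 genes, in kb from the lower end of the gene named under each axis, with genes in grey and the 300-base promoter windows in red. Both Cdkn2a starts lie under both kinds of region, and Cdkn1a has no Suz12 region within 10000 bp.

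The tables give statistics of a comparison and no values of single libraries, but whole reads per library could be recovered from the deposited means (see the processing). Recovered reads per library summed to 20697493 to 26374895 in ESC and 23570194 to 47201666 in NP. Values by library below are these reads divided by a size factor over all 32 libraries and are called scaled reads. Within a group, library 1 is the one with more reads. Replicate numbers of the labels could not be assigned to libraries. The targeted gene, Suz12, had 1316 to 2714 scaled reads in the 3 ESC KO libraries and 4746 to 9265 in WT. In ESC KO-L3D it had 1731.8 and 2683.5, within the KO range, and in KO-S3D 5061.0 and 10228.2. KO-L had 3468.2 and 3886.1 and KO-S 4192.3 and 4138.1, above KO and below WT. ESC Deltaex4 had 4120.6 and 2316.1, below WT, and CSex4 had 7752.4 and 7669.1. Whether Suz12 RNA level plays a part in the KO-L3D values, or in their differences from KO-L, was not tested. In NP, Suz12 had 1071 and 1122 in KO against 2788 to 5180 in the 4 WT libraries. Of the cell type markers, pluripotency genes summed to 51633 scaled reads or more in each ESC library and to 37319 or fewer in each NP library.

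The knock-out was the comparison with the most called members in ESC. At an adjusted p under 0.05, 5 of the 9 genes were higher in ESC KO than in WT (Cdkn2a, Cdkn2b, Cdkn2c, Ccnd2 and Ccnd3) and 0 were lower, where 11.0% and 7.27% of all tested genes were called higher and lower. The median log2 fold change of the 9 genes was 0.70 in the authors' deposited table, against 0.01 over all tested genes. In NP KO against the first WT pair, 3 genes were higher (Cdkn2a, Cdkn2b and Cdkn1a) and Cdkn1b was lower, where 11.6% and 9.85% of tested genes were called, and the medians were 0.49 and -0.01 in the authors' deposited table. The table of the second WT pair against the same KO libraries called the same 4 genes, 3 lower and 1 higher in WT, where 17.3% and 15.6% of tested genes were called. In total, 31 of 117 entries (9 genes in 13 tables) were called.

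**Figure D2:**
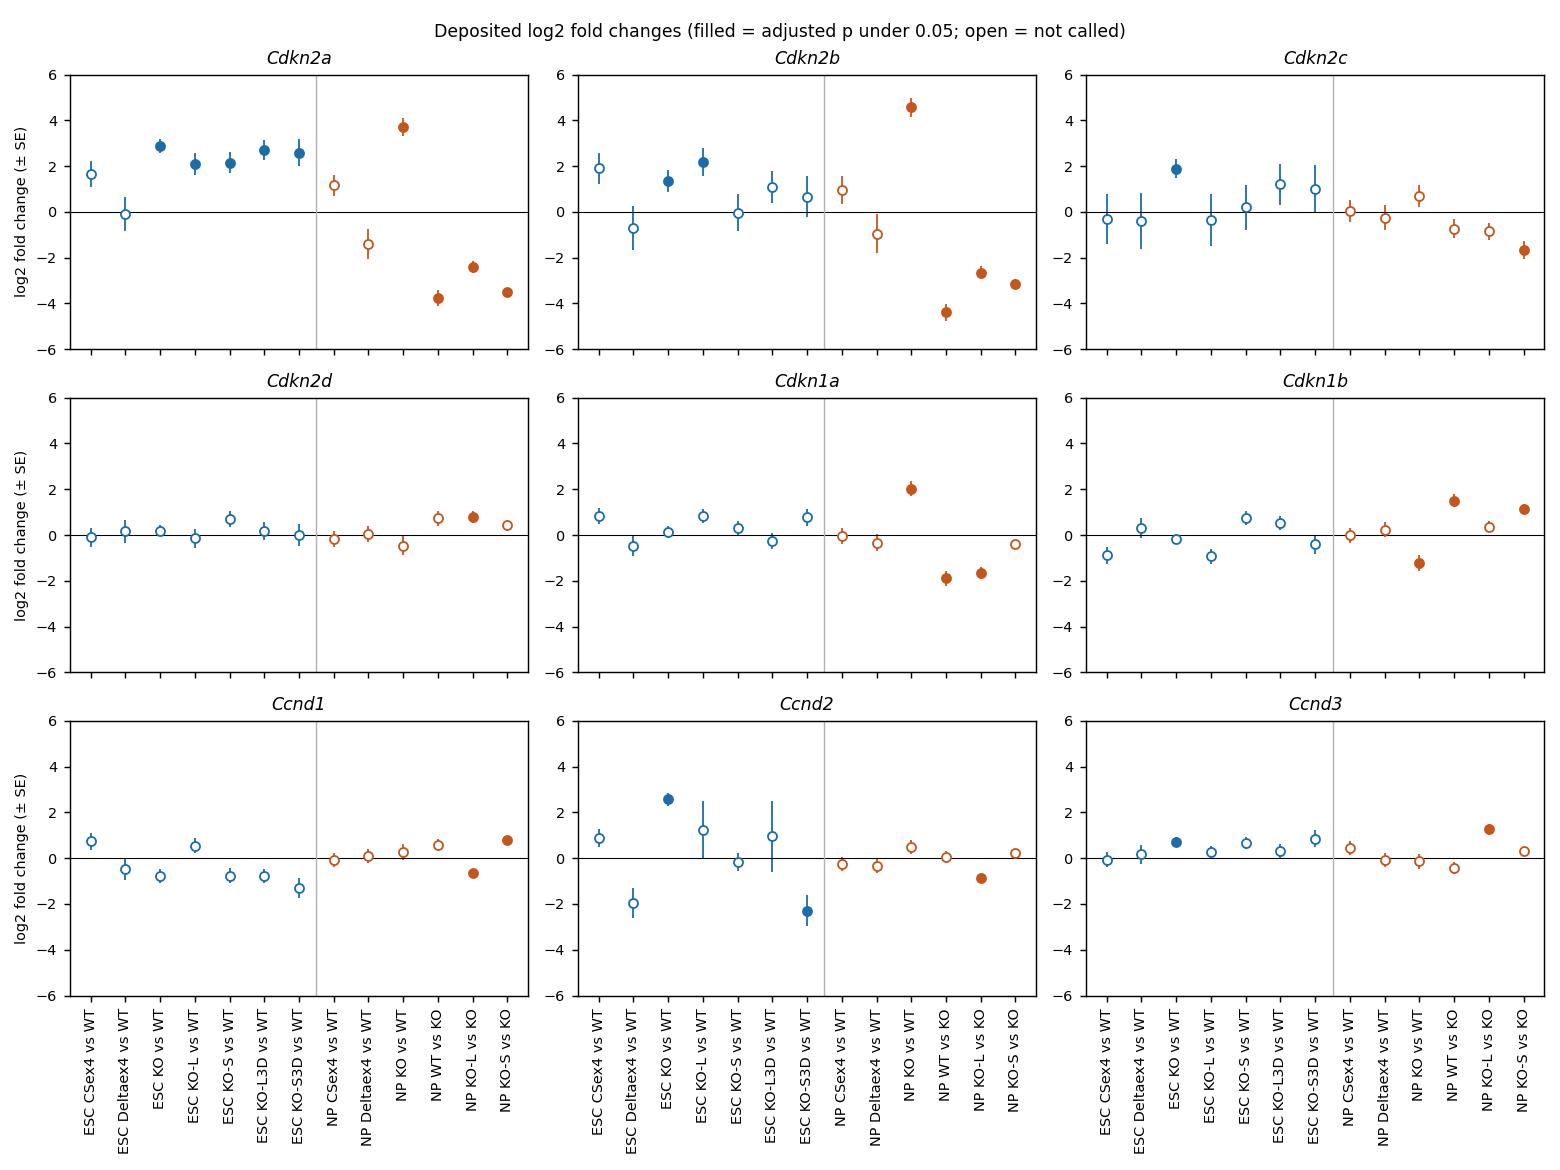
Log2 fold changes ± SE of the 9 genes in the 13 deposited tables, ESC in blue and NP in orange, with filled points for an adjusted p under 0.05. The tables that end in "vs KO" have the knock-out as the baseline, so a rise in KO is a negative value there, as for Cdkn2a at -3.77 in NP WT vs KO.

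Cdkn2a was the most often called of the genes, in 9 of 13 tables. In ESC it had 118, 127 and 57.4 scaled reads in the WT libraries and 805, 687 and 656 in KO. The rescues lay between, with 405 and 309 (KO-L) and 324 and 400 (KO-S), and the mutated rescues had 706 and 421 (KO-L3D) and 641 and 377 (KO-S3D). All libraries of these 5 groups were above all WT libraries. Cdkn2a was 2.88 ± 0.29 higher in KO than in WT (log2, SE, adjusted p 2.08e-20) in the authors' deposited table. The authors' deposited tables gave a rise of 2.10 ± 0.49 for KO-L (adjusted p 0.00288) and one of 2.15 ± 0.47 for KO-S (adjusted p 1.84e-04). For the mutated rescues the authors' deposited tables gave 2.70 ± 0.44 (KO-L3D, adjusted p 7.05e-08) and 2.59 ± 0.58 (KO-S3D, adjusted p 0.00117). The difference between KO-L and KO was -0.79 ± 0.57 (95% interval -1.91 to 0.34) and that between KO-S and KO -0.73 ± 0.55 (-1.81 to 0.35), and neither passed the test of the difference. The error of this test takes no account of the WT libraries that the effects share, and may be too wide. All KO libraries lay above all KO-L and KO-S libraries. Over all tested genes, 0.336% differed between KO-L and KO. In a limma-voom fit on the recovered reads, the KO-L value lost its call with the replicate block (adjusted p 0.0628) and without it (0.0996). Without the block, adjusted p ranged from 0.0918 to 0.463 on leaving out any 1 of the 5 libraries. The KO-S value kept its call without the block (limma adjusted p 0.0199) but lost it without KO-S library 1 (0.0667), KO-S library 2 (0.156) or WT library 1 (0.054). With the block, limma gave an adjusted p of 0.0775 for KO-L3D and 0.0555 for KO-S3D.

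All CSex4 libraries had more Cdkn2a than all Deltaex4 libraries of the same cell type, but neither group was called against WT. CSex4 had 294 and 228 scaled reads in ESC and 451 and 486 in NP, all above every WT library of the same cell type. Deltaex4 had 32.4 and 172 in ESC, on both sides of WT, and 65.3 and 98.0 in NP, below every NP WT library. The log2 fold changes against WT were 1.64 ± 0.56 (CSex4, adjusted p 0.0953) and -0.09 ± 0.74 (Deltaex4) in ESC in the authors' deposited tables. In NP they were 1.16 ± 0.45 (CSex4, adjusted p 0.120) and -1.40 ± 0.66 (Deltaex4, unadjusted p 0.035) in the authors' deposited tables. The direct difference between CSex4 and Deltaex4 in NP was 2.56 ± 0.80 (adjusted p 0.0861), and the limma fit without the block called it (2.55, adjusted p 0.0126) but not with any 1 of the 4 libraries left out (0.0603 to 0.0688). In NP, 1.22% of tested genes differed in this comparison, and in ESC, where no member was called, 0.0502% did. The CSex4 and Deltaex4 effects did not differ between NP and ESC for any member (3.09% and 0.00512% of tested genes differed), and at an unadjusted p under 0.05 each of these 2 comparisons held 1 member, Ccnd2.

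In NP, Cdkn2a had 350 and 125 scaled reads in the first WT pair and 262 and 152 in the second, against 2244 and 3378 in KO. The KO libraries thus lay far above all 4 WT libraries. KO-L had 582 and 466, above every WT library, and KO-S had 290 and 199, within the WT range. Cdkn2a was 3.70 ± 0.38 higher in KO than in the first WT pair (adjusted p 4.93e-20) in the authors' deposited table. In the authors' deposited tables it fell against KO by 2.41 with the long isoform (SE 0.26, adjusted p 3.98e-19) and by 3.51 with the short one (SE 0.19, adjusted p 1.18e-69). The difference KO-S minus KO-L was -1.102 ± 0.322 (adjusted p 0.0132), a call that the limma fit without the block did not make (adjusted p 0.0943, and 0.151 to 0.379 on leaving out any 1 of the 4 libraries).

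Cdkn2b, whose product p15 also binds CDK4 and CDK6, had its highest levels in NP KO. It had 109 and 37.6 scaled reads in the first NP WT pair and 95.3 and 54.7 in the second, 1250 and 1939 in KO, 282 and 218 in KO-L, and 192 and 159 in KO-S. Both rescues lay below KO and above all WT libraries. The rise in KO was 4.58 ± 0.41 (log2, adjusted p 4.40e-26) in the authors' deposited table. Against KO, the authors' deposited tables gave -2.66 ± 0.29 for KO-L (adjusted p 1.38e-18) and -3.15 ± 0.23 for KO-S (adjusted p 1.78e-40). In ESC it had 65.1, 58.1 and 34.0 in WT, 210, 142 and 70.9 in KO, and 227 and 204 in KO-L. KO-S, with 54.3 and 37.3, overlapped WT. The authors' deposited tables gave ESC rises of 1.36 ± 0.48 for KO (adjusted p 0.0287) and 2.18 ± 0.61 for KO-L (adjusted p 0.0209), both on few reads. In KO, limma kept the call of Cdkn2b with the block (adjusted p 0.00652). Without the block it did not call Cdkn2b (adjusted p 0.0887), nor did it on leaving out any of the WT libraries or KO library 1 or 2 (0.142 to 0.287). In KO-L, limma called it neither with the block (adjusted p 0.0677) nor without it (0.105, and 0.0947 to 0.445 with any 1 of 5 libraries left out). The KO effect on Cdkn2b was larger in NP than in ESC by 3.22 ± 0.63 (adjusted p 1.63e-05), where 9.65% of tested genes differed. CSex4 in ESC had 269 and 116 scaled reads and a log2 fold change of 1.89 ± 0.68 (adjusted p 0.131) in the authors' deposited table.

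Genes next to the locus were examined to see how far the change reached. Mtap, 93383 bp below Cdkn2a, was not called in ESC KO (log2 fold change 0.39 ± 0.25, adjusted p 0.295) or NP KO (0.12 ± 0.33, adjusted p 0.858) in the authors' deposited tables. Dmrta1, 377166 bp above Cdkn2b, was not called either, at 0.61 ± 1.12 and 2.66 ± 1.12 (adjusted p 0.784 and 0.0745), in the authors' deposited tables. Its mean there was only 7.35 in ESC and 30.3 in NP, against 3066 and 2810 for Mtap. With errors this wide, whether Dmrta1 changed could not be decided. Among the 10238 genes with a mean of at least 100 in all tables, the 3 whose log2 fold changes over the 13 comparisons most resembled those of Cdkn2a were Mpp1 (Pearson's r 0.97), Fndc3b (0.97) and Nfatc2 (0.96). The 13 comparisons share libraries, so these correlations describe likeness only, and they take no account of size. In the authors' deposited tables, the log2 fold changes in ESC KO were 0.73 (Mpp1), 0.55 (Fndc3b) and 0.58 (Nfatc2), against 2.88 for Cdkn2a. Those in NP KO were 0.81, 0.95 and 1.29, against 3.70.

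Cdkn2c (p18) and Cdkn2d (p19Ink4d) are the INK4 genes outside that locus, and of the pair Cdkn2c alone was called in ESC KO. Cdkn2c had 26.3, 28.1 and 28.1 scaled reads in ESC WT and 108, 84.0 and 116 in KO, with no overlap. It rose by 1.89 ± 0.43 in ESC KO (log2, adjusted p 2.28e-04) in the authors' deposited table. Its levels in KO-L (38.4 and 11.3) and KO-S (30.4 and 30.5) were near WT, while those in KO-L3D (78.0 and 52.8) and KO-S3D (56.0 and 50.5) were above all WT libraries, with log2 fold changes of 1.21 ± 0.90 and 0.99 ± 1.05 that were not called in the authors' deposited tables. In NP, Cdkn2c had 159 to 180 in the 4 WT libraries, 256 and 303 in KO and 79.7 and 97.8 in KO-S, so that KO-S lay below WT. It fell by 1.65 in KO-S against KO (SE 0.39, adjusted p 1.84e-04) in the authors' deposited table. KO against the first WT pair had 0.71 ± 0.48 (adjusted p 0.323) in the authors' deposited table.

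Cdkn2d had 310 to 425 scaled reads in ESC KO and 329 to 333 in WT. In NP it had 444 and 550 (KO), 868 and 833 (KO-L), 732 and 601 (KO-S), and 614 to 832 in the 4 WT libraries. Both KO libraries lay below all other NP libraries. The one called value was that of KO-L, at 0.77 ± 0.26 against KO (log2, adjusted p 0.0171) in the authors' deposited table. Without KO-L library 1 the limma fit gave an adjusted p of 0.0553.

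**Figure D3:**
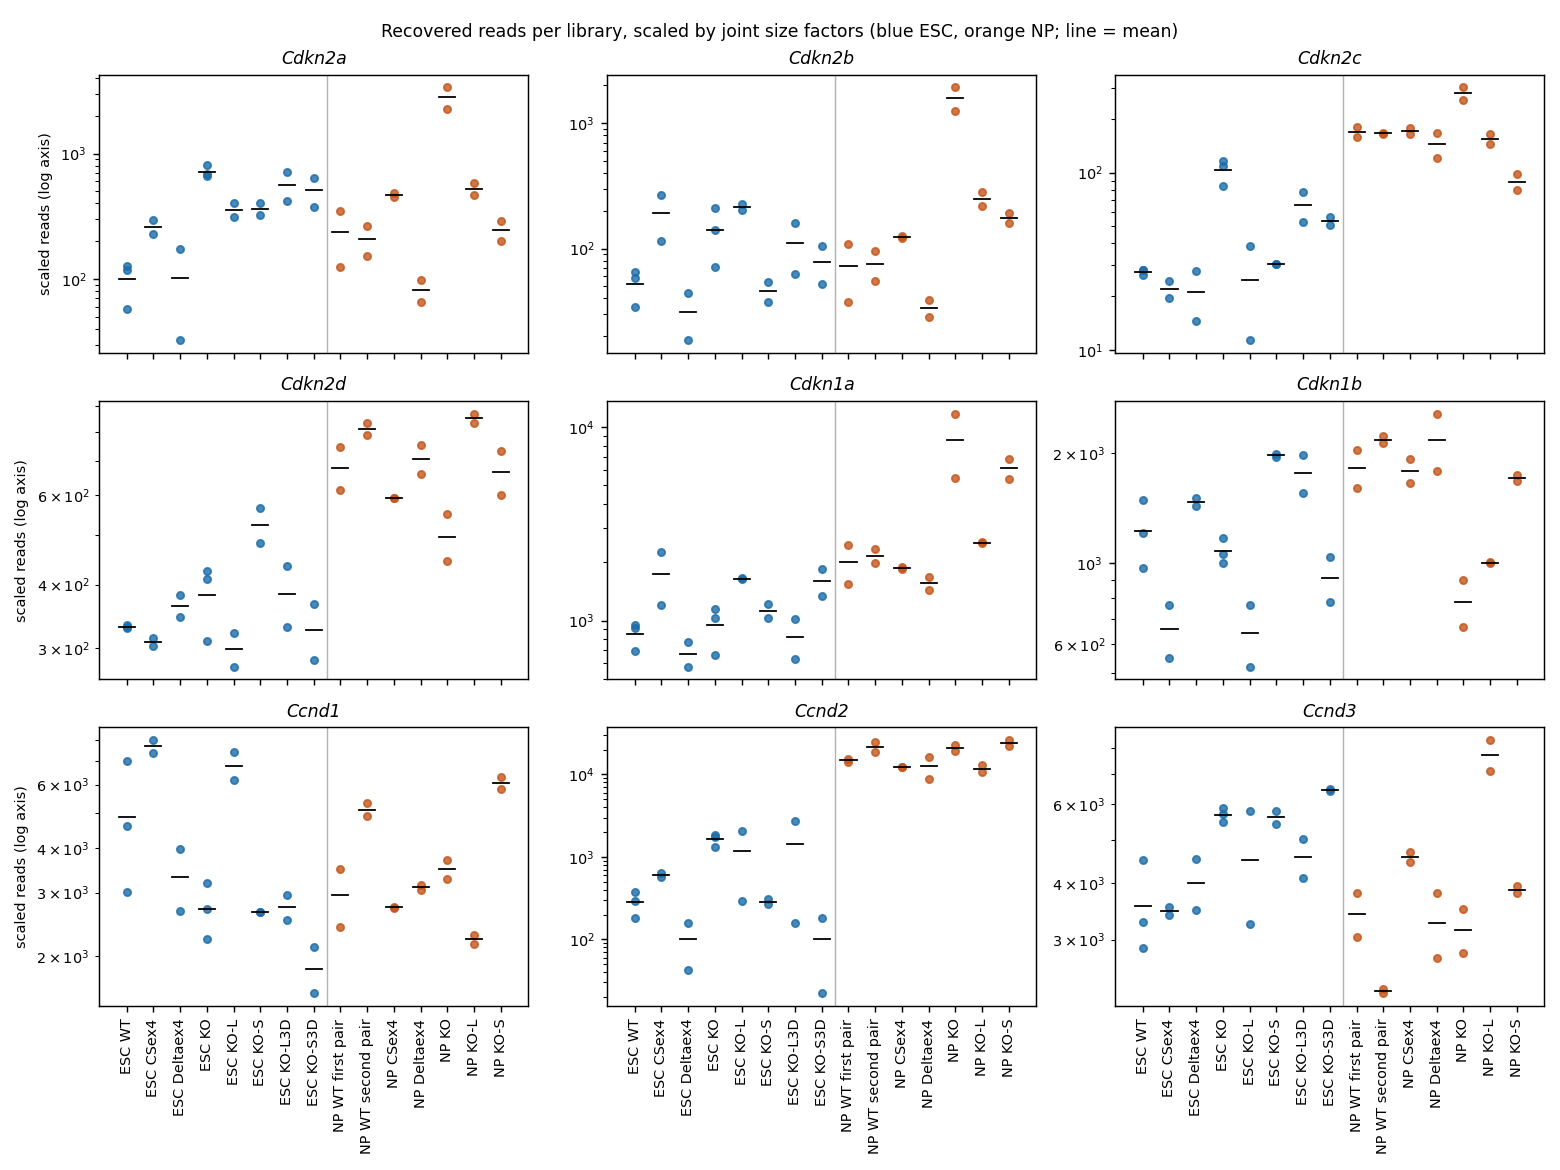
Scaled reads of the 9 genes in each of the 32 RNA-seq libraries on log axes, by group, with ESC in blue, NP in orange and the group mean as a line. NP KO holds the highest values of Cdkn2a, Cdkn2b, Cdkn2c and Cdkn1a. For Ccnd2 the 2 ESC libraries of KO-L, of KO-L3D, of KO-S3D and of Deltaex4 lie far apart.

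Of the Cip/Kip inhibitors, Cdkn1a was higher in NP KO and in KO-S, and Cdkn1b was lower in NP KO. Cdkn1a had 2444 and 1547 scaled reads in the first NP WT pair, 2343 and 1974 in the second, and 5435 and 11724 in KO. KO-S stayed at 6845 and 5388, while KO-L, at 2537 and 2514, lay just above the highest WT library. Cdkn1a rose by 2.03 ± 0.33 in KO against the first WT pair (log2, adjusted p 3.02e-08) in the authors' deposited table. Limma with the block gave an adjusted p of 0.0517. It fell by 1.67 in KO-L against KO (SE 0.25, adjusted p 8.16e-10) in the authors' deposited table. KO-S against KO had -0.39 ± 0.19 (adjusted p 0.102) in the authors' deposited table. The rescues differed from each other by 1.28 ± 0.32 (KO-S minus KO-L, adjusted p 0.00171). The limma fit without the block called this difference (adjusted p 0.0203) but not with any 1 of the 4 libraries left out (0.0664 to 0.117). In ESC, Cdkn1a had 694 to 953 in WT and 667 to 1148 in KO, with overlap and a log2 fold change of 0.13 ± 0.27 (adjusted p 0.818) in the authors' deposited table. CSex4 (2271 and 1206.5), KO-L (1638.5 and 1651), KO-S (1036 and 1214) and KO-S3D (1838 and 1343.5) lay above all ESC WT libraries. KO-L3D (1021 and 631) and Deltaex4 (576 and 770) did not. Cdkn1a was called in no ESC group. The KO effect was larger in NP than in ESC by 1.90 ± 0.43 (adjusted p 2.63e-04).

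Cdkn1b moved the other way in NP. It had 900 and 667 scaled reads in KO against 1608 to 2231 in the 4 WT libraries, with 1000 and 1004 in KO-L and 1678 and 1748 in KO-S. KO-S was thus within the WT range and KO-L below it. Cdkn1b fell by 1.23 in KO against the first WT pair (log2, SE 0.35, adjusted p 0.00355) in the authors' deposited table. Limma with the block gave an adjusted p of 0.0677. The authors' deposited tables gave a rise of 1.15 ± 0.20 for KO-S against KO (adjusted p 2.49e-07), while KO-L was not called (0.36 ± 0.25, adjusted p 0.334). The difference between the rescues was 0.79 ± 0.32 and did not pass the test (95% interval 0.16 to 1.42). In ESC no table called Cdkn1b. Its levels there were 968 to 1493 in WT, 548 and 766 in CSex4, 519 and 767 in KO-L, and 1986 and 1961 in KO-S, so that CSex4 and KO-L lay below and KO-S above all WT libraries. KO-S exceeded KO-L by 1.68 ± 0.44 (adjusted p 0.00865), where 2.36% of tested genes differed, and KO-L3D exceeded KO-L by 1.45 ± 0.44 (adjusted p 0.0398), where 2.84% did. The limma fit without the block called both differences (adjusted p 0.00162 and 8.37e-04), also with any 1 library left out.

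Ccnd2 was the cyclin with the widest range. In ESC it had 290, 179 and 372 scaled reads in WT and 1822, 1760 and 1308 in KO. It rose by 2.58 ± 0.28 in ESC KO (log2, adjusted p 1.03e-17) in the authors' deposited table. Limma called this rise with the block (adjusted p 7.95e-04) but not in the fit of all ESC libraries without it (0.0678, and 0.102 to 0.178 with any 1 of the 6 libraries left out). In that fit all groups share 1 estimate of the spread. Whether this plays a part in the lost call was not tested. The libraries of some ESC groups lay far apart. KO-L had 2076 and 292, KO-L3D had 2737 and 156, KO-S3D had 181 and 22.2, and Deltaex4 had 42.8 and 160. Both Deltaex4 libraries lay below all WT libraries, at -1.95 ± 0.66 against WT (log2, not called) in the authors' deposited table. The authors' deposited tables gave wide errors for KO-L (1.25 ± 1.24) and KO-L3D (0.97 ± 1.55), with no call for either. In KO-L3D, the library with the higher Ccnd2 also had the higher sum of 4 trophoblast markers (24725 against 4489), and so did that in KO-S3D (30856 against 733). In KO-L the library with the lower Ccnd2 had the higher sum (13115 against 8941). Whether cell composition plays a part was not tested. KO-S, with 268 and 306, lay within the WT range, and its effect was lower than that of KO by -2.74 ± 0.50 (adjusted p 9.61e-06), where 2.44% of tested genes differed. Limma without the block gave an adjusted p of 0.136 for this difference (0.173 to 0.394 with any 1 of 5 libraries left out). KO-S3D had -2.29 ± 0.68 against WT (log2, adjusted p 0.0289) in the authors' deposited table, a fall that limma did not call (adjusted p 0.203 with and 0.421 without the block, and 0.415 to 0.847 with any 1 library left out).

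In NP, every library had at least 8737 scaled reads of Ccnd2, more than any ESC library. KO had 22886 and 19235, KO-L 10726 and 12866, KO-S 26174 and 22352, and the 4 WT libraries 14347 to 25091. KO lay within the WT range, with 0.49 ± 0.32 (log2, adjusted p 0.298) in the authors' deposited table. KO-L lay below it. Ccnd2 fell by 0.85 in KO-L against KO (SE 0.19, adjusted p 1.24e-04) in the authors' deposited table. Limma without the block lost the call with any 1 of the 4 libraries left out (adjusted p 0.0563 to 0.192). The rescues differed by 1.06 ± 0.25 (KO-S minus KO-L, adjusted p 0.00108), a call lost in the same way (0.0526 to 0.135). The KO effect was smaller in NP than in ESC by -2.09 ± 0.42 (adjusted p 4.11e-05), and limma without the block gave an adjusted p of 0.131 for it (0.140 to 0.257 with any 1 of 10 libraries left out).

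Ccnd1 and Ccnd3 separated the rescues in NP. Ccnd1 had scaled reads of 2162 and 2285 (KO-L), 6318 and 5823 (KO-S) and 3280 and 3690 (KO), with 2405 and 3494 in the first WT pair and 5322 and 4906 in the second. KO-L lay below and KO-S above every WT library. The authors' deposited tables gave Ccnd1 values against KO of -0.66 ± 0.20 for KO-L (log2, adjusted p 0.00497) and 0.81 ± 0.16 for KO-S (adjusted p 2.28e-06). The difference between the rescues was 1.46 ± 0.25 (adjusted p 5.37e-07), where 7.03% of tested genes differed and 5 of the 9 genes did, and limma called it also with any 1 of the 4 libraries left out. For the KO-L value alone, limma lost the call without KO library 2 (adjusted p 0.0669), KO-L library 1 (0.0955) or KO-L library 2 (0.0551). For the KO-S value, limma with the block gave an adjusted p of 0.0539. Ccnd3 ran the other way, with 8350 and 7117 (KO-L), 3940 and 3811 (KO-S), 2798 and 3501 (KO) and 2278 to 3815 in the 4 WT libraries. KO-L thus had the highest Ccnd3 of all 32 libraries. It rose by 1.29 ± 0.21 in KO-L against KO (adjusted p 1.10e-08) in the authors' deposited table. The difference KO-S minus KO-L was -0.98 ± 0.27 (adjusted p 0.00638, and 0.0566 in limma without KO-L library 1).

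In ESC, Ccnd1 had 6968, 4613 and 3022 scaled reads in WT, a wide range. CSex4 (7988 and 7372) lay above it, and KO-S (2652 and 2648), KO-L3D (2962 and 2519) and KO-S3D (2113 and 1573) lay below it. None was called in the deposited tables, with log2 fold changes from 0.74 ± 0.37 in CSex4 to -1.31 ± 0.43 in KO-S3D in the authors' deposited tables. Ccnd3 had 4523, 3288 and 2878 in WT and 5715, 5886 and 5493 in KO, with no overlap. It rose by 0.70 ± 0.21 in ESC KO (log2, adjusted p 0.00842) in the authors' deposited table. Limma called it with the block (adjusted p 0.00577) and without it (0.0247), but in the fit without the block not without KO library 1, 2 or 3 or WT library 2 or 3 (0.0568 to 0.0791).

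**Figure D4:**
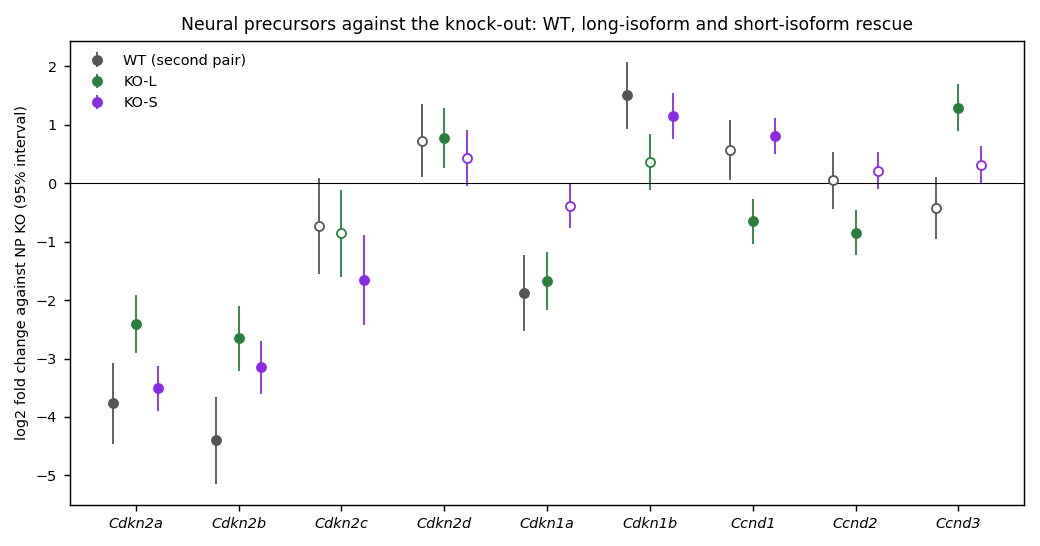
Log2 fold changes of the 9 genes against NP KO, with 95% intervals, for the second WT pair (grey), KO-L (green) and KO-S (purple) from the deposited tables, with filled points for an adjusted p under 0.05. Cdkn2a and Cdkn2b lie below 0 in all 3, Cdkn1a only in WT and KO-L among called values, and Ccnd1 has opposite signs in KO-L (-0.66) and KO-S (0.81).

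Across all 9 genes, KO-L against KO in NP called 7, of which 2 were higher (Cdkn2d and Ccnd3) and 5 lower (Cdkn2a, Cdkn2b, Cdkn1a, Ccnd1 and Ccnd2), where 10.9% and 13.8% of tested genes were called. KO-S against KO called 5, of which Cdkn1b and Ccnd1 were higher and Cdkn2a, Cdkn2b and Cdkn2c lower, where 16.4% and 18.0% of tested genes were called. The median over the 9 genes in the authors' deposited tables was -0.85 for KO-L, against 0.01 over all tested genes, and 0.21 for KO-S, against 0.00. These tables share the KO libraries. In ESC, KO-L called 2 genes higher and 0 lower (1.46% and 0.771% of tested genes), KO-S 1 and 0 (4.28% and 3.63%), KO-L3D 1 and 0 (8.22% and 10.1%), and KO-S3D 1 and 1 (2.05% and 1.18%). Between KO-S3D and KO-S, 0 of the 9 differed, where 0.44% of tested genes did, and Cdkn1b and Ccnd2 had an unadjusted p under 0.05. No member was called in the deposited tables of ESC CSex4 (2.41% of tested genes called in either direction), ESC Deltaex4 (0.0%), NP CSex4 (5.53%) or NP Deltaex4 (0.0809%). At an unadjusted p under 0.05 these 4 tables held 6, 1, 1 and 1 of the 9 genes. Limma with the block called 2 in ESC CSex4 (Cdkn2a and Cdkn2b) and 0 in the other 3, and without the block it called 0 in all 4. The shares of all tested genes called in these limma fits are not given here.

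Markers of cell types moved with these results in NP. In NP KO, 7 of 8 neural precursor markers and 3 of 4 neuron markers were lower and 3 of 4 primitive endoderm markers and 2 of 4 trophoblast markers were higher than in the first WT pair. Summed neural precursor markers were 2303 to 2533 scaled reads in KO, 7733 to 17800 in the first WT pair and 19763 to 20621 in the second. They were 5372 to 7034 with the long isoform and 11983 to 12034 with the short one. Neuron markers summed to 1268 to 1681 in KO, 6003 to 7890 with the long isoform and 6213 to 8210 with the short one. In the second WT pair neuron markers summed to 29152 to 29606. Primitive endoderm markers summed to 7668 to 14409 in KO, 1674 to 6088 in the first WT pair, 3544 to 5246 with the long and 4361 to 5839 with the short isoform. Trophoblast markers in the same order of groups summed to 22490 to 25117, 4159 to 9463, 5239 to 5908 and 16341 to 19390. In the second WT pair, primitive endoderm markers summed to 3580 to 4869 and trophoblast markers to 4648.5 to 7348.4. Fibroblast markers (3 collagen genes) summed to 16896 to 18661 in the KO-L libraries, and no KO, KO-S or WT library exceeded 5820. Pluripotency markers summed to 20199 to 29181 in KO-L and to at most 13300 in KO, KO-S and WT, and 6 of 8 were called higher in KO-L than in KO and 1 lower. In NP CSex4, the group with Cdkn2a above every WT library, they summed to 36412 to 37319, with 6 of 8 called higher and 3 of 8 neural precursor markers called lower than in WT. None of these markers was at 0 in all libraries of an NP group. The first WT pair was itself unequal, with neuron markers at 5496 in library 1 and 26762 in library 2. The part of these shifts in the values of the 9 genes was not tested, and in bulk RNA fewer cells of a type and less RNA per cell cannot be told apart. In ESC, CSex4 and KO-L had fibroblast marker sums of 1092 to 2515 against 220 to 463 in WT, and trophoblast sums of 8941 to 34384 against 2312 to 4346. In ESC KO, 3 of 4 trophoblast and 3 of 3 mesoderm markers were higher than in WT, with trophoblast sums of 2566 to 8506. Trophoblast sums reached 24725 in KO-L3D and 30856 in KO-S3D. Pluripotency markers summed to 51633 to 75226 in CSex4 against 100209 to 123444 in WT, with 3 of 8 called lower. Primitive endoderm markers summed to 3116 to 4209 in KO-S against 76.2 to 1867 in WT, with 0 of 4 called in the deposited table.

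Genes up- and downstream of the 9 were followed in lists, whose counts are to be read against the shares of all tested genes called. These shares were 11.6% higher and 9.85% lower in NP KO against the first WT pair, and 11.0% and 7.27% in ESC KO. Against NP KO they were 10.9% and 13.8% with the long isoform, and 16.4% and 18.0% with the short. Of 14 genes of p53 and its targets, 7 were higher and 0 lower in NP KO against the first WT pair, with a list median of 0.86 in the authors' deposited table and -0.01 over all tested genes. Fas, a death receptor, rose by 3.75 ± 0.81 (adjusted p 5.83e-05) and Ccng1, cyclin G1, by 1.68 ± 0.33 (adjusted p 5.32e-06) in the authors' deposited table. Trp53 itself was not called (0.14 ± 0.33) in the authors' deposited table. Against KO, each rescue called 8 of the 14 lower, and 2 were higher with the long isoform and 1 with the short. Cdkn1a, at -1.67 in KO-L and -0.39 in KO-S in the authors' deposited tables, was called lower in the first of these. In ESC KO, 1 of the 14 was higher (Pmaip1, which promotes apoptosis, 1.23 ± 0.17) and 4 were lower (Bbc3 the most, -1.03 ± 0.21) in the authors' deposited table.

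Proliferation genes were lower in NP KO for 3 of 12 and higher for 0, with a list median of -0.69 in the authors' deposited table. Mki67, which marks cycling cells, fell by 2.58 (SE 0.40, adjusted p 5.12e-09) in the authors' deposited table. Each rescue called 11 of the 12 higher than in KO, where 10.9% (long isoform) and 16.4% (short) of all tested genes were called higher, and the list medians were 0.83 for the long and 0.75 for the short isoform in the authors' deposited tables. Mki67 was not called in KO-L (0.32 ± 0.28) but rose by 1.73 ± 0.18 with the short isoform (adjusted p 5.28e-21) in the authors' deposited tables. In ESC KO 0 of the 12 were called, and in ESC KO-L3D 7 were lower, where 10.1% of tested genes were.

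Of 11 pocket proteins and E2F factors, which act directly below the D-type cyclins, 5 were lower in NP KO and 0 higher, where 9.85% and 11.6% of tested genes were. E2f2 had the largest fall, by 1.64 (SE 0.42, adjusted p 9.93e-04), in the authors' deposited table. KO-L against KO called 1 of them higher, E2f1 (1.15 ± 0.24, adjusted p 1.76e-05), and KO-S called 5, E2f8 the most (1.39 ± 0.24, adjusted p 6.85e-08), in the authors' deposited tables. Of 10 G1 kinases and later cyclins, 0 were called in NP KO and 2 were lower in ESC KO, Cdk6 (-1.70 ± 0.23, adjusted p 1.16e-11) and Ccne1 (adjusted p 0.00376), in the authors' deposited table. In NP, 3 of them were higher in KO-L than in KO, and 5 were higher and 1 lower in KO-S. Of the 4 measured genes of the ubiquitin ligase that degrades p27, Cul1 and Skp2 were lower in NP KO, as was Cdkn1b. The authors' deposited table gave -1.20 ± 0.33 for Cul1 and -0.87 ± 0.34 for Skp2 (adjusted p 0.0022 and 0.0496). Whether Cul1 and Skp2 play a part in the Cdkn1b value was not tested. Cdkn1c (p57), the other Cip/Kip inhibitor, was called in none of the 13 tables, with 0.49 ± 0.81 in ESC KO and 0.20 ± 0.35 in NP KO in the authors' deposited tables.

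Of 6 regulators of the Cdkn2a locus, 3 were higher in ESC KO (11.0% of tested genes), all of them known as repressors of the locus. Bmi1, a PRC1 subunit, rose by 2.46 ± 0.29 (adjusted p 6.13e-15), and the T-box factors Tbx3 and Tbx2 by 3.10 ± 0.27 and 3.41 ± 0.92 (adjusted p 2.38e-28 and 0.0025), in the authors' deposited table. Of the same regulators in NP KO, Bmi1 and Tbx3 were higher (1.14 ± 0.34 and 1.57 ± 0.42) and Dmtf1, an activator of the p19Arf promoter, was lower (-1.11 ± 0.35), with adjusted p of 0.00617, 0.00204 and 0.00935 in the authors' deposited table. Against NP KO, 4 of the 6 were lower with the short isoform and 1 with the long, and 0 were higher. Cdkn2a was higher in ESC KO and NP KO and lower in both NP rescues against KO. Whether these regulators play a part in the Cdkn2a values was not tested.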

How the data were processed

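RNA-seq of 32 samples enters as 13 comparison tables, and ChIP-seq as 2 region lists. Per the file headers, the authors' columns carry the names of DESeq2 results. The submitters' processing notes name TopHat, Bowtie, DESeq2 and DiffBind and the builds mm10 and dm3, without roles or versions. Of the deposited columns, baseMean is a signal: reads over size factors, averaged across the libraries of a table. The authors deposited fold changes with standard errors on the log2 scale, a statistic (a score, the fold change over its error), and a p-value with its adjusted p-value. A gene was called at a deposited adjusted p under 0.05. Differences between tables are the difference of 2 deposited log2 fold changes over the root of their summed squared errors, with a normal p adjusted by Benjamini-Hochberg over all genes (11 differences). Libraries that both tables share were not allowed for, so these errors may be too wide within a cell type.

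Whole reads were recovered from baseMean: each is a sum of whole reads weighted by library, and lattice reduction (sympy 1.14.0) over the tables that share libraries gave reads for 99.68% (ESC) and 100% (NP) of 26171 genes, all 9 members among them, to within 1 unit of the last printed digit. In simulated data 99.81% of 1551 genes (ESC) and all of 1553 (NP) were exact. Log2 fold changes computed from the recovered reads lay within 0.1 of the deposited ones for at least 99.37% of 11390 genes in every table. The deposited design was paired. In the 6 ESC tables with 2 libraries per altered group, WT library 2 had no partner, so their effects rest on 2 WT libraries. All ESC tables share WT, and 4 NP tables share KO. Libraries were assigned to pairs by matching standard errors of genes with reads in a single library. In ESC KO, the 3 pairs' deviations from group means correlated at 0.16 to 0.43. Other pairings were not scored, so these correlations cannot establish the pairing. Among the 12 tables of 2 pairs, the correlation ran from -0.53 to 0.55 and exceeded 0.1 in 2. Recovered reads were also fitted with limma-voom 3.58.1, chosen after seeing the data, over genes with at least 10 reads in at least 2 libraries. The fits were made with the pairs as a block, without it, and without each library. Fits with the block used only the libraries of the comparison. The other fits used all libraries of the cell type, or of both cell types for NP minus ESC, with a shared estimate of the spread. Fits with and without the block thus also differ in libraries and degrees of freedom.

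The members and gene lists were chosen with earlier results of these data known. Named genes are the 9 members, Suz12, the nearest protein-coding gene on each side of the Cdkn2a locus, the most changed called genes of each list, and the 3 genes most like Cdkn2a. Trp53, Ccng1, Skp2, Ccne1, the other Tbx and Bmi1 values and uncalled genes of lists were named after their values were seen. Regions were assigned to genes of GRCm38.p6 within 2500 bp. No deposited column of single samples was used, and ChIP-seq values per sample were not analysed here.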

Additional observations from a re-analysis of the deposited data

Results flagged for a closer look

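The KO effect on 3 of the 9 genes differed between NP and ESC by the test of the difference, where 9.65% of all tested genes differed. For Cdkn2b, the NP effect exceeded the ESC effect by 3.22 ± 0.63 on the log2 scale (adjusted p 1.63e-05). For Cdkn1a, it exceeded it by 1.90 ± 0.43 (adjusted p 2.63e-04), with an ESC effect of 0.13. For Ccnd2, the NP effect was lower, at -2.09 ± 0.42 (adjusted p 4.11e-05), and limma without the block did not call this difference (adjusted p 0.131). None of the 9 genes had a library that stood apart from the other 3 among the 4 NP WT libraries, the only group of 4 or more.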

How the results depend on the processing

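Of the 42 called values (31 in the deposited tables and 11 differences), 36 kept their call under every alternative set out at the start, 34 in limma without the replicate block, and 26 with each library left out in turn. No value reversed. At an adjusted p under 0.01, the number of called members fell to 1 in ESC KO-L, 1 in ESC KO-S3D and 0 for KO-L3D minus KO-L, and by 1 each to 4 in ESC KO, 6 in NP KO-L against KO and 4 for NP KO-S minus KO-L. With the estimates assumed to correlate at 0.5, the numbers were 1 for ESC KO-L minus KO, 2 for KO-S minus KO, 3 for KO-S minus KO-L, 3 for KO-L3D minus KO-L, 1 for KO-S3D minus KO-S, and 1 each for CSex4 minus Deltaex4 in ESC and NP. For these settings the shares of all tested genes called are not given here. The counts of members near regions were the same at 0 and 10000 bp.

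With the replicate block, limma called 2 members in ESC CSex4, 0 in each of ESC KO-L, KO-L3D and KO-S3D, 2 in NP KO against WT and 8 in NP WT against KO. Of the 31 calls in the tables, 23 kept their call with the block. Without the block, it called 0 in ESC KO-L, 4 each in ESC KO-S, KO-L3D and KO-S3D, and 7 in NP WT against KO. For the differences it called 7 for the KO effect (NP minus ESC), 3 for ESC KO-L minus KO, 2 for KO-S minus KO, 4 for KO-S minus KO-L, 4 for KO-L3D minus KO-L, 2 for KO-S3D minus KO-S, 4 for ESC and 1 for NP CSex4 minus Deltaex4. The cause of these shifts was not tested. The shares of all tested genes called in these fits are not given here, so the counts cannot be read as results about the members. In NP KO against all 4 WT libraries, limma without the block called 52.7% of tested genes.

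With 1 library left out, a lone remaining library is assumed to vary like the other groups. The shares of all tested genes called are not given for these fits either, so the ranges cannot be read as results about the members. Called members then ranged in ESC from 0 to 3 (CSex4), 0 to 0 (Deltaex4), 2 to 3 (KO), 0 to 1 (KO-L), 0 to 4 (KO-S), 1 to 4 (KO-L3D) and 2 to 4 (KO-S3D). In NP they ranged from 0 to 2 (CSex4), 0 to 1 (Deltaex4), 5 to 6 (KO), 5 to 7 (WT against KO), 4 to 7 (KO-L) and 5 to 6 (KO-S). Among differences, the ranges were 4 to 5 (KO effect, NP minus ESC), 0 to 2 (CSex4 effect), 0 to 0 (Deltaex4 effect), 0 to 2 (ESC KO-L minus KO), 0 to 2 (KO-S minus KO), 1 to 2 (KO-S minus KO-L), 2 to 3 (KO-L3D minus KO-L), 0 to 1 (KO-S3D minus KO-S), 0 to 4 (ESC CSex4 minus Deltaex4), 0 to 1 (the same in NP) and 1 to 2 (NP KO-S minus KO-L).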

Other observations

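The 2 pairs of NP WT libraries could be compared through the recovered reads. The second pair had higher Ccnd1 (0.82 ± 0.15 on the log2 scale) and Ccnd2 (0.55 ± 0.25) and lower Ccnd3 (-0.56 ± 0.18) than the first pair, but limma called none of the 9 genes (adjusted p 0.227, 0.393 and 0.286) and 0 of 17431 genes in all. Against all 4 WT libraries together, limma without the block called Cdkn2a (3.70 ± 0.31, adjusted p 1.35e-05), Cdkn2b (4.47 ± 0.33), Cdkn2c (0.72 ± 0.17, adjusted p 0.00549) and Cdkn1a (adjusted p 2.49e-04) higher in NP KO and Cdkn2d (-0.59 ± 0.15, adjusted p 0.00691) and Cdkn1b (-1.35 ± 0.18) lower, where 52.7% of tested genes were called. The 3 D-type cyclins were not called there.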
